A study of Mus musculus with 16 samples.

Results

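Chemokines, interleukins and their receptors were followed through the dorsal root ganglia (DRG) and the dorsal part of the lumbar spinal cord of mice after nerve injury. Members were protein-coding genes whose symbols name a chemokine, a chemokine receptor, an interleukin or an interleukin receptor, together with Lif, Lifr, Osm, Tnf, Tnfrsf1a, Tnfrsf1b, Ackr1 and Ackr3, and without Il34 and Il31ra. The rule found 149 of the 53465 genes in the count table, with 141 distinct symbols. A member was described where it had an average of at least 32 reads over the 4 mRNA libraries of a tissue, which 57 members did. Of these, 55 passed in the DRG, 40 in the spinal cord and 38 in both tissues. The other 92 members were under this minimum in both tissues, and 24 of them had no read in any of the 16 libraries. The 57 comprised 16 chemokine ligands, 6 chemokine receptors, 7 interleukin ligands, 24 receptor chains of interleukins and of the LIF family, 2 TNF receptors, the inhibitor Il18bp and the enzyme Il4i1, which carries an interleukin symbol without being a cytokine.

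Female C57BL/6J mice, 8 weeks old, underwent bilateral spared nerve injury (SNI), which cuts the tibial and peroneal divisions of the sciatic nerve but spares its sural division, or a sham operation in which no division was harmed. DRG of lumbar levels L3 to L5 and the matching dorsal spinal cord were taken 30 days after surgery. Each sample pooled the tissue of 10 mice, each lysate was split into a poly(A) mRNA library and a library of ribosome footprints, the fragments shielded by ribosomes from RNase I, and the 8 groups given by tissue, surgery and assay held 2 pools each. All errors and p-values therefore describe read counting error and the spread between pools, and not the spread between mice. The sham pools were the reference throughout. The lysates were whole tissue, in which fewer cells of a type and less RNA per cell cannot be told apart.

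Chemokines are small secreted proteins that guide leukocytes along gradients through receptors coupled to G proteins, while the atypical receptors Ackr1 and Ackr3 bind chemokines and remove or carry them without classical signalling. Interleukins signal through paired receptor chains, and one shared chain often serves several cytokines, as Il6st (gp130) does for the LIF and interleukin-6 family and Il17ra for the interleukin-17 family. In injured nerve and ganglia these factors are known to come from macrophages, satellite glia, fibroblasts and neurons, to recruit further immune cells and to sensitise nociceptors.

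Promoter sequences, the windows around an annotated start whose use was not measured, are shown for 5 members whose DRG mRNA rose. They come from RefSeq on GRCm38.p6 and run from 250 bases before to 50 bases after an annotated start, written 5′ to 3′ on the gene's strand. Capitals mark matches to the motifs searched on both strands, and positions count from the annotated start to a motif's first base as printed. Ccl8, a CC chemokine, holds a TATA box (TATAAA) at position -32. Il4ra and Il13ra1 encode the chains that together form the type II receptor of interleukin-4 and interleukin-13. Il4ra holds an NF-kB core (GGNNTTTCC, here on the opposite strand) at position 20, and the window of Il13ra1 holds none of the motifs. Tnfrsf1b, which encodes TNF receptor 2, holds a STAT motif (TTCNNNGAA) at position -181. Il17rc, the partner chain of Il17ra, holds an NF-kB core on the opposite strand at position -236.
Ccl8, chr11:82114935-82115234, plus strand: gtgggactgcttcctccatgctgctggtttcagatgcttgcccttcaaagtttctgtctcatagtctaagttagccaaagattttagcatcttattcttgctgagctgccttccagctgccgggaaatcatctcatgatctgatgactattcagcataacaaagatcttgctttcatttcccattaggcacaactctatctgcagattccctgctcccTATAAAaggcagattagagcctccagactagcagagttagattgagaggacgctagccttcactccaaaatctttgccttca
Il4ra, chr7:125552021-125552320, plus strand: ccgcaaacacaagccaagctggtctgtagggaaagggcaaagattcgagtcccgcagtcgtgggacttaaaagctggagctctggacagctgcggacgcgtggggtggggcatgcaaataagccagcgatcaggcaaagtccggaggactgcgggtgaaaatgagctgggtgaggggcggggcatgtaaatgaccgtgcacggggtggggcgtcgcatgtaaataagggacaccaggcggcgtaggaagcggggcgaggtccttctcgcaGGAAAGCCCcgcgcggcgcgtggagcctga
Il13ra1, chrX:36111858-36112157, plus strand: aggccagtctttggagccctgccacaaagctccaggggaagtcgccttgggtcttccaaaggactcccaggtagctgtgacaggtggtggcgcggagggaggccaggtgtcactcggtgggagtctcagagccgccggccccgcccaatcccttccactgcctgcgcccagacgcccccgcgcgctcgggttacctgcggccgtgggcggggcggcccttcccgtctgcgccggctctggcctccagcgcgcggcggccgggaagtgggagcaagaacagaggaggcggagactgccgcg
Tnfrsf1b, chr4:145246821-145247120, minus strand: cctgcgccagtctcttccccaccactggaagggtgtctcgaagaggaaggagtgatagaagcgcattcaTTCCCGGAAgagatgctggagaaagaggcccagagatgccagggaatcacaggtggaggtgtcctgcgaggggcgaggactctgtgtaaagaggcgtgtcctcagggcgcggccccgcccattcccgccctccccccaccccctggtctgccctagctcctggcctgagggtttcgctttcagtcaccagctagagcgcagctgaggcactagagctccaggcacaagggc
Il17rc, chr6:113471205-113471504, plus strand: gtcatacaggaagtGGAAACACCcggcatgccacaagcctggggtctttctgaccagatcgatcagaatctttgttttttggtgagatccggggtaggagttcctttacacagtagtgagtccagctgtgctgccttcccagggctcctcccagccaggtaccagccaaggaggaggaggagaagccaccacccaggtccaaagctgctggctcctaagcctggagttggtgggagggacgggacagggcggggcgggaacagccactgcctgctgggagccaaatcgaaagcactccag
Of the 57 members, 44 were matched to a RefSeq promoter by symbol. A TATA box lay in a window of 10 of the 44 members and in 13.6% of all 32851 promoters, and an AP-1 motif (TGANTCA) in 9 members and 7.8% of promoters. The STAT motif lay in 4 members and 8.3% of promoters, and the NF-kB core in 8 members and 5.8% of promoters. A member with several annotated starts counted once if any of its windows held the motif, so the member counts and the shares of promoters are not on the same footing. A match gives the letters of these windows and not a bound site.

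The libraries held 6898056 to 28553113 reads in genes. Sensory neuron markers summed to 5534 CPM (counts scaled to library size by TMM) in each sham DRG mRNA pool. The sums were 5393 and 5370 CPM in the SNI DRG pools and between 82.9 and 100 CPM in the cord. Of the 7 sensory neuron markers, 5 were lower and 2 higher in DRG mRNA after SNI. All 11 genes known to be induced in injured sensory neurons were higher in DRG mRNA after SNI, and 6 of the 11 in the cord. Over all genes tested, 16.0% were higher and 16.9% lower in DRG mRNA, and 1.64% were higher in cord mRNA. Other cell types moved with surgery in the DRG. Of 13 microglia and macrophage markers 8 were higher after SNI, and their sum was 274 and 269 CPM in the sham pools and 323 and 317 CPM in the SNI pools. Of the fibroblast markers 5 of 6 were higher, of the skeletal muscle markers 7 of 8 and of the mast cell markers tested 2 of 4. Erythroid markers were lower for 4 of 6 genes, and B lymphocyte and plasma cell markers for 2 of 5 tested. Astrocyte markers were lower for 4 of 6 genes and higher for 1. Markers of cord tissue were lower in the DRG after SNI, with calls for 3 of 4 oligodendrocyte markers and 4 of 6 spinal neuron markers tested. The oligodendrocyte sum was 56.7 and 53.2 CPM in sham and 27.5 and 28.8 CPM in SNI, against 2728 to 2952 CPM in the cord. No gene of a cell type marker list was at 0 in all mRNA libraries of a tissue. The part of these cell types in the results was not tested.

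Most members were low in both tissues. Levels between genes are compared as mRNA CPM per kilobase of exon, and on this scale 45 of 55 members lay below the median of all 14494 genes over the minimum in the DRG (5.72) and 32 of 40 below that of 14723 genes in the cord (5.66). The median of the members was 2.11 in sham DRG and 1.73 in sham cord. A few members stood far above the rest, which were receptors in the DRG and both ligands and receptors in the cord.

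In sham DRG the highest level was that of Lifr, the receptor of leukaemia inhibitory factor, at 112 and 109 CPM per kb in the 2 pools. Its signalling partner Il6st followed among the interleukin receptors at 48.7 and 48.1, and Il10rb, a chain shared by the receptors of interleukin-10 and related cytokines, at 17.6 and 17.1. Both LIF receptor chains were lower in the cord, where Lifr had 14.8 and 13.7 CPM per kb and Il6st 13.0 and 12.6. Il11ra1, the interleukin-11 receptor chain, came next in the cord at 4.82 and 5.34.

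Among chemokine receptors, Ackr1, the Duffy antigen of venular endothelium and red cells, was highest in both tissues at 102 and 98.1 CPM per kb in sham DRG and 35.2 and 34.0 in sham cord. Ackr1 shares 361 exonic bases, 25.7% of its exons, with Cadm3 on the same strand, so some of its reads could be split with that neuronal gene, which had 59763 reads in the 4 DRG mRNA libraries against 12323 for Ackr1. Cxcr4, the signalling receptor of Cxcl12, had 14.7 and 15.7 CPM per kb in the DRG but 0.842 and 1.14 in the cord. Ackr3, the scavenging receptor of the same ligand, had 4.21 and 4.34 in the DRG and 2.88 and 2.48 in the cord.

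Ligands were led in the cord by Cxcl14, a chemokine of barrier and neural tissue, at 61.7 and 62.0 CPM per kb. Il33, a nuclear alarmin of glia and endothelium, had 48.9 and 47.1, and Il18, a cytokine matured by caspase-1, had 16.3 and 18.9. In sham DRG the same ligands had lower levels, with Cxcl14 at 1.71 and 1.74, Il33 at 3.38 and 3.09 and Il18 at 3.92 and 4.51. The DRG ligands were led by Ccl11 (eotaxin, which attracts eosinophils) at 7.56 and 8.07, Il17d at 7.38 and 7.57, Cxcl12 at 7.36 and 7.18 and the transmembrane chemokine Cxcl16 at 3.99 and 4.52. The pools of Ccl11, Il17d and Cxcl12 lay next to each other, and those of Cxcl16 overlapped those of Il18, so that these orders are within the spread between pools. In the cord, Cxcl12 had 4.42 and 4.30, Il17d 8.08 and 9.02 and Ccl27a 3.77 and 4.63. Ccl27a and Il11ra1 have near-identical annotated copies that were listed at 0 in every library, so their counts are uncertain.

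**Figure D1:**
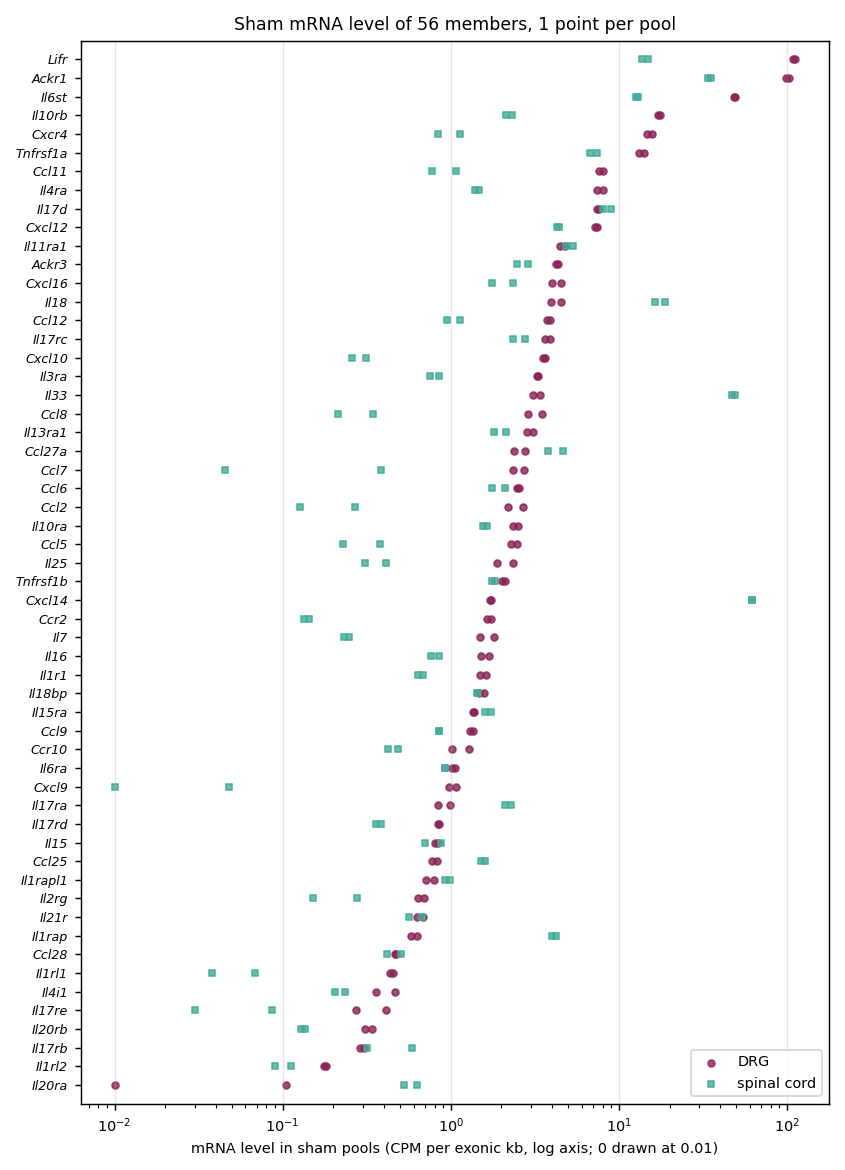
Sham mRNA level of 56 of the 57 members in CPM per exonic kilobase on a log axis, with 1 point for each of the 2 pools of DRG (circles) and spinal cord (squares), ordered by the DRG mean; pools at 0 are drawn at 0.01. Lifr, Ackr1 and Il6st lead in the DRG, while Cxcl14, Il33, Il18 and Il1rap lie to the right of their DRG points in the cord.

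Tested between the sham groups, 49 of the 57 members differed between DRG and cord, against 83.8% of all genes tested, 40.9% higher in the DRG and 42.9% lower (edgeR quasi-likelihood test, adjusted p under 0.05, which is the meaning of "called" throughout). The share of members, 86.0%, was near that background. The 17 members that reached the read minimum in the DRG alone had to be higher there, and Il17rb and Il20ra, which reached it in the cord alone, higher in the cord. Of the 38 members that passed in both tissues, 20 were higher in the DRG, 10 were higher in the cord and 8 were not called. Of the 49 calls, 42 were made under every alternative run. That of Il17rb was among those lost, with an adjusted p of 0.164 without DRG sham replicate 1, 0.107 without DRG sham replicate 2 and 0.802 without cord sham replicate 1.

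The cord excess was widest for Cxcl14, with 3.12 and 3.18 CPM in sham DRG and 113 in each sham cord pool (log2 DRG over cord -5.16, SE 0.0749, adjusted p = 1.0e-72). Il33 had 9.76 and 8.90 CPM in the DRG and 141 and 136 CPM in the cord, a difference of -3.89. Il1rap, the accessory chain of the interleukin-1 and interleukin-33 receptors, had 6.54 and 7.15 CPM against 48.0 and 45.6 CPM (-2.78), and Il18 had 4.04 and 4.65 against 16.8 and 19.5 (-2.06). Neither tissue's pools came near the other's for these 4 members. Il17ra was also higher in the cord, at 18.3 and 19.6 CPM against 7.26 and 8.51 (-1.27, adjusted p = 4.6e-22).

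On the DRG side, Cxcr4 had 26.6 and 28.3 CPM against 1.52 and 2.06 in the cord (log2 3.95, SE 0.117, adjusted p = 8.3e-49). Il4ra had 44.6 and 48.5 CPM against 8.85 and 8.42 (2.42), and Lifr 1202 and 1175 CPM against 159 and 147 (2.95). In each of these members all DRG pools lay above all cord pools.

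After SNI, 15 members rose in DRG mRNA and 3 fell, out of 55 tested. These 18 are 32.7% of the members, which is near the 32.9% of all 14494 genes called in this comparison. By direction, 27.3% of members were higher against 16.0% of all genes, and 5.45% lower against 16.9%. The median log2 fold change was 0.17 over the members and 0.00 over all genes. Changes over 1.5-fold were called for 7 members, 12.7%, against 2.44% of all genes. With library sizes alone in place of TMM factors, 22 members were called, 19 higher and 3 lower, and the split over all genes moved from 2314 higher and 2450 lower to 3072 and 1781.

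Of 16 chemokine ligands tested 6 rose, among them the CC ligands Ccl8, Ccl7, Ccl5 and Ccl6, and Ccl8 had the largest log2 fold change of all members. Ccl8 mRNA had 1.79 and 1.47 CPM in the sham pools, from 35 and 26 reads, and 3.32 and 3.12 CPM in the SNI pools, from 94 and 69 reads. Both SNI pools thus lay well above both sham pools, and the log2 fold change was 0.98 (SE 0.199, adjusted p = 1.9e-04). Ccl7, a monocyte chemokine, went from 2.20 and 1.87 to 3.21 and 2.99 CPM (0.61, adjusted p = 0.0129), and its adjusted p was 0.122 without sham replicate 2 and 0.10 without SNI replicate 1. Ccl5, a chemokine known from T cells and macrophages, had 2.20 and 2.38 CPM in sham and 3.53 and 3.03 in SNI (0.53, adjusted p = 0.0242). Ccl6, a macrophage chemokine of rodents, had 4.45 and 4.59 CPM in sham and 6.25 and 5.52 in SNI (0.39, adjusted p = 0.0315). The calls of Ccl5 and Ccl6 each depended on 3 pools. For Ccl5 the adjusted p was 0.164, 0.0632 and 0.236 when sham replicate 1, sham replicate 2 or SNI replicate 1 was left out, and for Ccl6 it was 0.158, 0.0881 and 0.266.

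Both chromosome 11 clusters of CC genes held members that passed the test beside neighbours that did not. Ccl2, Ccl7, Ccl11, Ccl12 and Ccl8 follow each other in this order on the plus strand, from 82035571 to 82116799 on GRCm38. Their log2 fold changes were 0.13, 0.61, 0.21, 0.29 and 0.98, and Ccl7 and Ccl8 were called. In the other cluster, on the minus strand from 83525778 to 83593087, Ccl5 had 0.53, Ccl9 0.22 and Ccl6 0.39, and Ccl9 was not called. Ccl2, which recruits monocytes through Ccr2, had 2.5 and 3.06 CPM in sham and 3.10 and 2.94 in SNI, so that its groups overlapped.

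Of the CXC ligands, Cxcl12, a homeostatic chemokine of stroma and glia, rose by little but with little spread. It had 60.1 and 58.7 CPM in sham and 69.2 and 70.3 in SNI, a log2 fold change of 0.23 (SE 0.0359, adjusted p = 4.1e-06). Its receptors did not follow, with Cxcr4 at 26.6 and 28.3 against 25.1 and 25.7 CPM (-0.11, adjusted p = 0.140) and Ackr3 at 14.1 and 14.5 against 15.1 and 14.2 CPM (0.04). Cxcl16, which is made by macrophages and tethered to their membrane, had 12.1 and 13.7 CPM in sham and 16.3 in both SNI pools (0.35, SE 0.0841, adjusted p = 0.00139), and its adjusted p was 0.0700 without sham replicate 1. Cxcl16 shares 18.3% of its exonic bases with Zmynd15 on the opposite strand, which had 172 reads against 1300 for Cxcl16 in the 4 libraries.

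Of 22 receptor chains of interleukins and of the LIF family tested, 7 rose and 2 fell, beside 15 and 3 of all 55 members. Several of those that rose encode chains of one complex. Il13ra1 had 11.4 and 10.5 CPM in sham and 18.7 and 17.5 in SNI, a log2 fold change of 0.73 (SE 0.0849, adjusted p = 1.7e-08). Its partner Il4ra had 44.6 and 48.5 CPM in sham and 61.2 and 59.1 in SNI (0.37, SE 0.0417, adjusted p = 5.9e-09). Both chains of the type II receptor, whose promoters are shown above, were thus higher in both SNI pools. Il1r1, the signalling receptor of interleukin-1, went from 10.3 and 9.47 to 15.5 and 15.2 CPM (0.63, SE 0.0905, adjusted p = 8.1e-07). Its accessory chain Il1rap stayed within the spread of the pools, with 6.54 and 7.15 CPM in sham and 6.84 and 6.38 in SNI (-0.04, adjusted p = 0.845).

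Chains of the interleukin-17 receptor went in both directions. Il17ra, common to the family, had 7.26 and 8.51 CPM in sham and 11.9 and 12.6 in SNI (0.63, SE 0.105, adjusted p = 1.0e-05). Il17rc, which joins Il17ra to bind interleukin-17A and interleukin-17F, had 9.66 and 10.4 CPM in sham and 13.3 and 13.2 in SNI (0.40, SE 0.0938, adjusted p = 0.00103). Il17re, which joins Il17ra to bind interleukin-17C, fell by 0.88 on the log2 scale, from 2.40 and 1.59 to 1.16 and 0.995 CPM (SE 0.240, adjusted p = 0.00414). Il17re and Il17rc are neighbours on the plus strand of chromosome 6, at 113458484 to 113470758 and 113471427 to 113483140, with 668 bases between them. The fall of Il17re rested on sham replicate 1, without which the log2 fold change was -0.54 with an adjusted p of 0.265.

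The other receptors with higher mRNA are known on myeloid and lymphoid cells. Tnfrsf1b had 8.07 and 7.66 CPM in sham and 11.0 in both SNI pools (0.48, SE 0.104, adjusted p = 4.2e-04), while the broadly expressed Tnfrsf1a had 34.0 and 36.6 against 38.0 and 37.5 CPM (0.10, adjusted p = 0.128). The chemokine receptor Ccr2 had 11.7 and 11.1 CPM in sham and 12 and 12.8 in SNI (0.11, adjusted p = 0.397).

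Il10ra, the ligand-binding chain for interleukin-10, went from 8.23 and 8.79 to 10.5 and 11.5 CPM (0.36, adjusted p = 0.00681), with an adjusted p of 0.0860 without sham replicate 1 and 0.0541 without SNI replicate 2. Its partner Il10rb had 67.1 and 64.9 CPM in sham and 68.1 and 66.1 in SNI, so that the groups overlapped. Il6ra, the ligand-binding chain for interleukin-6, went from 8.84 and 9.19 to 11.6 and 10.9 CPM (0.33, adjusted p = 0.0115), with 0.0947 without sham replicate 1 and 0.114 without SNI replicate 1. Beside these members, the macrophage markers Csf1r, Trem2 and Cd68 had log2 fold changes of 0.61, 1.04 and 0.56 in the same libraries, and the part of macrophages in the members' values was not tested.

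Il7, a survival factor of lymphocytes made by stromal cells, was the interleukin ligand that fell. It had 10.3 and 8.51 CPM in sham and 6.03 and 5.56 in SNI, and so fell by 0.69 on the log2 scale (SE 0.123, adjusted p = 2.7e-05). Both SNI pools lay below both sham pools, and its receptor chain Il7r stayed under the read minimum with 17 and 16 reads in sham and 30 and 30 in SNI. Il1rapl1, a synaptic organiser related to the interleukin-1 receptor, had 7.41 and 6.64 CPM in sham and 4.76 and 5.70 in SNI. On the log2 scale the change was -0.44 (adjusted p = 0.00987), and the adjusted p was 0.137 without sham replicate 1 and 0.177 without SNI replicate 1. In the sham pools Il1rapl1 had a log2 DRG over cord of -0.34 (adjusted p = 0.00537). That call was lost under DESeq2 (0.134), with a coefficient of variation of 0.1 (0.0915), without DRG sham replicate 2 (0.0842) and without cord sham replicate 1 (0.0616). Markers of cord tissue were lower in the same DRG libraries after SNI, and their part in this result was not tested. Cxcl14, the member with the widest excess in the cord, had 3.12 and 3.18 CPM in sham DRG and 3.49 and 3.71 in SNI DRG.

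**Figure D2:**
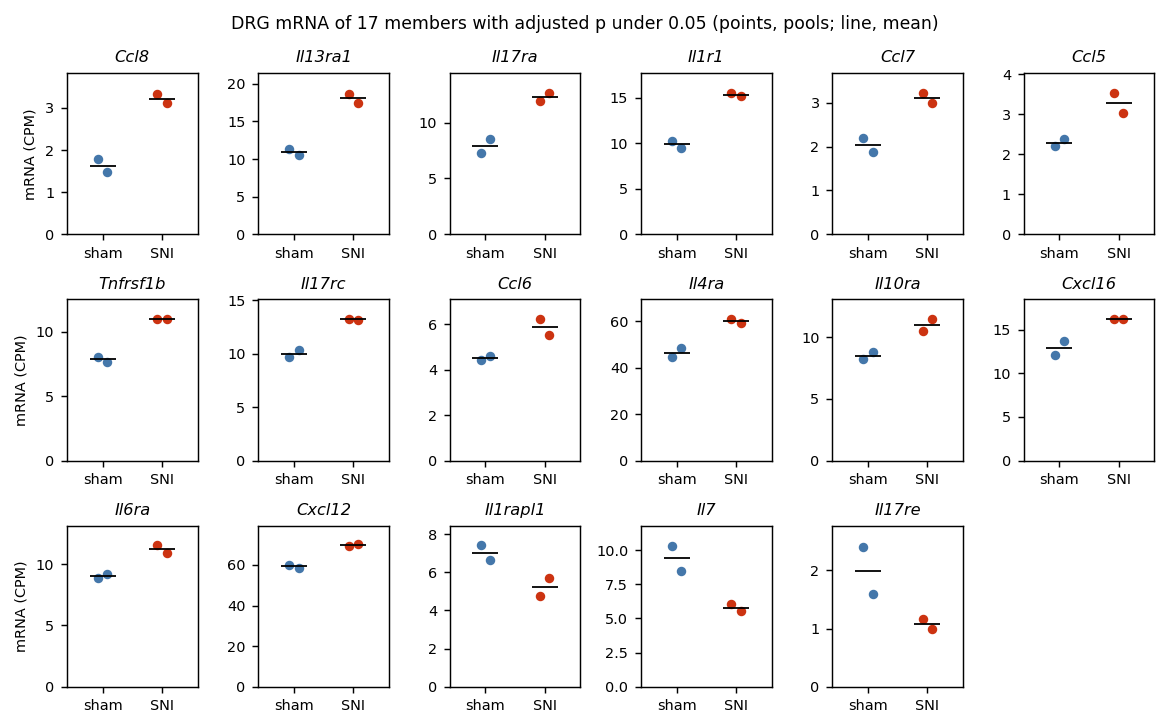
DRG mRNA in CPM normalised by TMM for 17 of the 18 members called after SNI, with 1 point for each pool, a line at the mean and an axis from 0 in each panel; blue, sham; red, SNI. The panels are ordered by log2 fold change from Ccl8, and the last 3, Il1rapl1, Il7 and Il17re, are the members that fell.

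These calls differed in strength. Il1r1, Il7, Il17ra, Ccl8 and Il13ra1 passed under every alternative run, including DESeq2, each pool left out in turn and a fixed coefficient of variation of 0.1 in place of the spread estimated from the pools. The estimated variation beyond counting error was 0.00988, so that small differences passed the test, and with 0.1 these 5 members alone were called. DESeq2 called 8 members, the same 5 with Tnfrsf1b, Cxcl12 and Il4ra.

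The remaining 37 members were not called in DRG mRNA, and their log2 fold changes lay between -0.40 for Ccr10 and 0.53 for Il1rl2 and Il2rg. Among them were the 3 members with the highest levels in the DRG. Lifr had 1202 and 1175 CPM in sham and 1188 and 1196 in SNI, Ackr1 143 and 138 against 143 and 138, and Il6st 541 and 534 against 551 and 548. The groups of Lifr and Ackr1 overlapped, and the log2 fold change of Il6st was 0.03 (adjusted p = 0.101). Il33, Il18 and Il17d, the highest interleukin ligands of the DRG, had log2 fold changes of -0.04, 0.06 and -0.17.

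**Figure D3:**
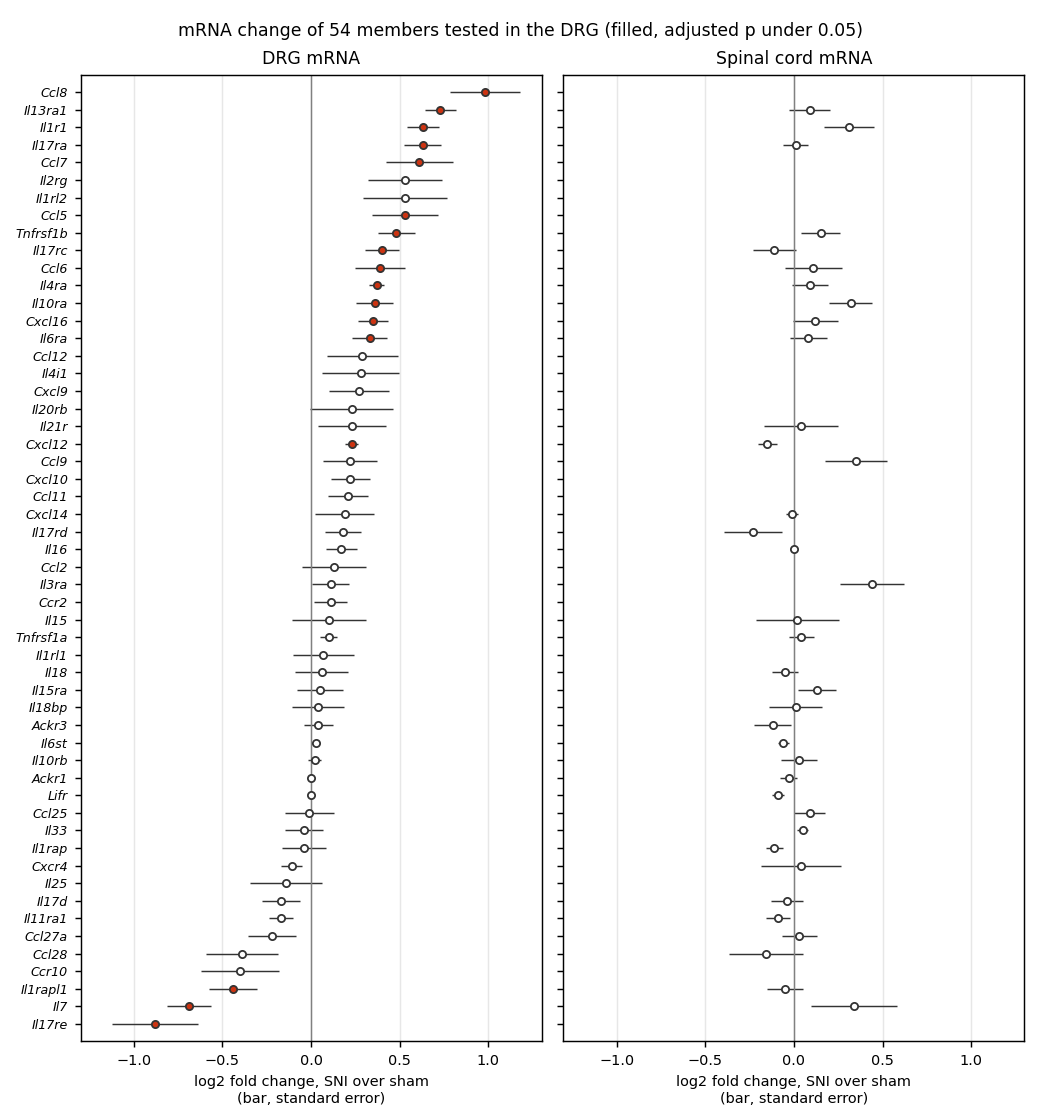
Change of mRNA after SNI on the log2 scale for 54 of the 55 members tested in the DRG (left) and for those of them tested in the spinal cord (right), ordered by the DRG value; bars are standard errors, left off where the change is under 0.005, and filled points have an adjusted p under 0.05. Filled points appear in the DRG panel alone, from Ccl8 at 0.98 to Il17re at -0.88.

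Ribosome footprints of the DRG gave 11 called members out of 41 tested, all of them higher after SNI. This is 26.8% of the members, against 16.5% of all 13038 genes called in either direction, 8.20% higher and 8.25% lower. Changes over 1.5-fold were called for 2 members, Il17ra among them, which is 4.88% against 2.14% of all genes. With library sizes alone 12 members were called, and the split over all genes moved from 1069 higher and 1076 lower to 1354 and 829. Of the 18 members called in mRNA, 15 had enough footprints to be tested and 7 were called in both assays, which come from the same lysates. Among these were Il13ra1, Il17ra, Il1r1, Il4ra, Tnfrsf1b and Cxcl16.

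Il17ra footprints went from 5.63 and 6.34 CPM in sham to 9.94 and 10.3 in SNI (0.73, SE 0.143, adjusted p = 6.5e-05). Il17ra was the member called under every alternative in this assay. Il13ra1 footprints went from 10.4 and 10.5 to 14.6 and 15.2 CPM (0.52, SE 0.114, adjusted p = 3.6e-04), and those of Il4ra from 75.7 and 76.7 to 87.3 and 87.4 CPM (0.20, SE 0.0476, adjusted p = 0.00153). Both chains of the type II receptor were again higher in each SNI pool. These 3 members remained called whichever pool was left out, while DESeq2 called Il17ra and Lifr alone.

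Other members called in both assays had wider spreads in footprints. Il1r1 had 5.49 and 5.53 CPM in sham and 8.15 and 7.41 in SNI (0.48, adjusted p = 0.0238), and leaving out any one pool gave an adjusted p between 0.0630 and 0.230. Cxcl16 had 5.77 and 4.60 against 8.72 and 6.62 CPM (0.58, adjusted p = 0.00917), with 0.423 without sham replicate 2 and 0.175 without SNI replicate 1. The groups of both members were apart. Tnfrsf1b had 11.1 and 8.26 CPM in sham and 10.0 and 13.7 in SNI (0.43, adjusted p = 0.0165). Its groups overlapped, and its adjusted p was 0.720 without sham replicate 2 and 0.758 without SNI replicate 2.

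Called in footprints and not in mRNA were Ccl11, Il16, Lifr and Il6st. Ccl11 went from 6.59 and 7.15 to 9.21 and 9.74 CPM (0.45, adjusted p = 0.0168), and Il16, a cytokine that attracts CD4 cells, from 12.5 and 12.2 to 15.2 and 16.6 CPM (0.39, adjusted p = 0.00623). The adjusted p of Ccl11 was 0.0765 without sham replicate 1, 0.115 without sham replicate 2 and 0.199 without SNI replicate 2, and that of Il16 was 0.166 leaving out sham replicate 2 and 0.199 leaving out SNI replicate 2. Il16 shares 15.3% of its exonic bases with Stard5 on the opposite strand. Lifr footprints went from 932 and 949 to 990 and 1009 CPM (0.09, SE 0.0196, adjusted p = 4.8e-04), and those of Il6st from 776 and 768 to 809 and 824 CPM (0.08, SE 0.0222, adjusted p = 0.00551). These small changes were measured on 6785 to 21654 footprints per pool for Lifr. Without SNI replicate 2 the adjusted p was 0.149 for Lifr and 0.279 for Il6st, and without SNI replicate 1 it was 0.0533 for Il6st.

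Of the 8 members called in mRNA and tested but not called in footprints, Ccl8 had 4.94 and 4.25 CPM in sham and 6.03 and 5.59 in SNI (0.37, adjusted p = 0.154). Cxcl12 had 24.9 and 25.9 against 31.1 and 28.3 CPM (0.20, adjusted p = 0.0684), and its groups did not overlap either. Il17rc had 5.08 and 4.60 against 4.40 and 4.75 CPM (-0.04, adjusted p = 0.937), with overlapping groups. For Il6ra, Il10ra and Ccl6 the footprint changes were 0.39, 0.48 and 0.46, and none passed the test. Il1rapl1 had 5.91 and 5.35 against 5.05 and 5.73 CPM (-0.01).

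Translational efficiency (TE), the footprint CPM over the mRNA CPM of the same lysate, was tested by asking whether the effect of surgery differed between the assays. Of 41 members 2 were called, both higher, which is 4.88% against 7.49% of all 12710 genes, 4.15% higher and 3.34% lower. Il7 had log2 TE values of -1.50 and -1.38 in the sham lysates and -1.06 and -0.42 in the SNI lysates, a difference of 0.76 (SE 0.249, adjusted p = 0.0374). Its footprints, 3.57 and 3.26 CPM in sham and 2.85 and 4.15 in SNI, overlapped between groups while its mRNA fell. The footprint value rested on 26, 56, 35 and 89 reads. Without SNI replicate 2 the difference was 0.36 with an adjusted p of 0.738, and it was 0.153 without sham replicate 1 and 0.149 without sham replicate 2.

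Lifr had log2 TE values of -0.37 and -0.31 in sham and -0.26 and -0.25 in SNI, a difference of 0.08 (SE 0.0190, adjusted p = 9.8e-04). Its adjusted p was 0.231 without sham replicate 1, 0.107 without SNI replicate 1 and 0.354 without SNI replicate 2. Neither TE call was made by DESeq2. The TE fit shared 1 estimate of the variation beyond counting error between the assays, 0.00988, against 0.0430 in DRG footprints alone. Errors and p-values of DRG TE could therefore understate the spread between footprint pools. Ccl8, the member whose mRNA rose most, had log2 TE values of 1.47 and 1.51 in sham and 0.86 and 0.84 in SNI, and its difference of -0.64 did not pass the test (adjusted p = 0.161).

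In sham DRG the log2 TE of the 41 members spread widely around a median of -0.39, against -0.18 for 12393 protein-coding genes. The highest were Ccl8 at 1.49, Cxcr4 at 0.94, Il1rap at 0.87 and Ackr3 at 0.84, which lay between the 88.8th and the 97.5th percentile of those genes. Ackr1 lay far below all other members at -6.13, the lowest value among the 12393 genes, with 1.79 and 2.15 footprint CPM beside 143 and 138 mRNA CPM. The exons that Ackr1 shares with Cadm3 bear on both counts, and how the shared reads were counted was not tested. The next lowest were Il11ra1 at -2.23 and Il3ra at -1.73. In sham cord Cxcr4 was highest of 25 members at 1.68 and Il11ra1 lowest at -1.58.

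**Figure D4:**
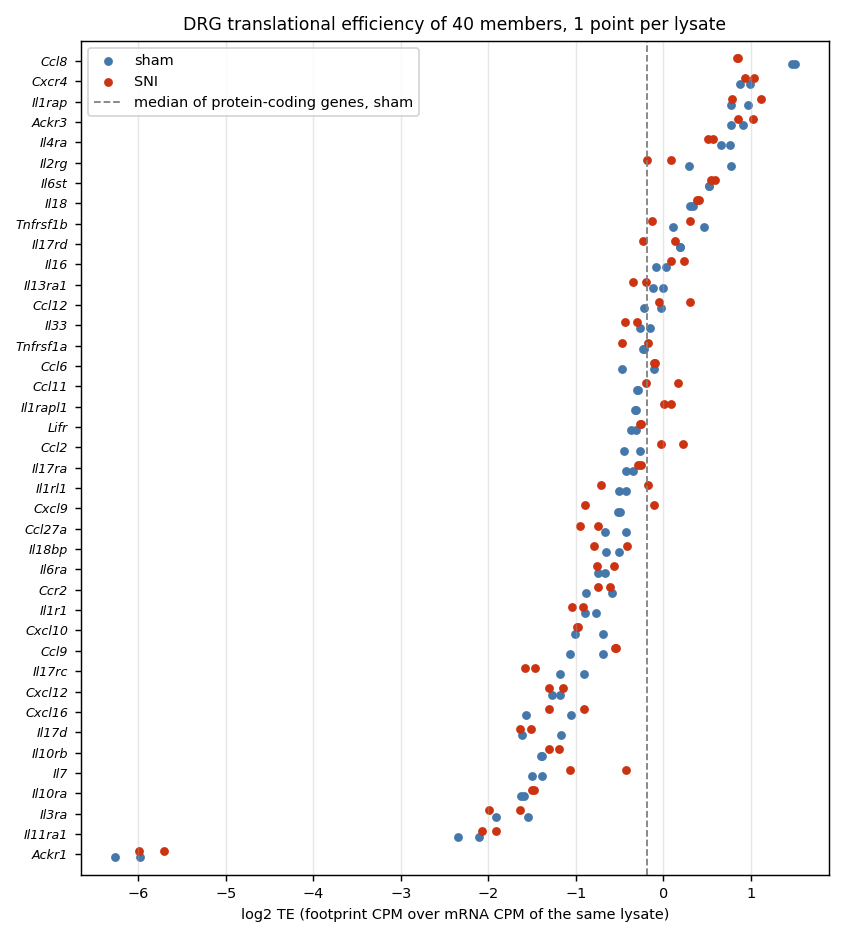
Log2 TE of 40 of the 41 members with enough reads in both DRG assays, with 1 point for each lysate (blue, sham; red, SNI), ordered by the sham mean; the dashed line is the sham median of protein-coding genes, -0.18. Ccl8 lies at the top with its SNI lysates to the left of its sham lysates, Il7 has SNI lysates to the right, and Ackr1 stands alone near -6.

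In spinal cord mRNA none of 40 members was called by edgeR, against 3.83% of all 14723 genes, 1.64% higher and 2.19% lower. DESeq2 also called 0, and 7 members had an unadjusted p under 0.05 in edgeR. Among these were Cxcl12, Il10ra, Il1r1, Il1rap, Il3ra and Lifr. The share of all genes at that unadjusted cut was not computed, so the 7 members have no background to be set against. Over all genes the calls were 241 higher and 323 lower, and with library sizes alone 336 and 250.

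Il3ra, the interleukin-3 receptor chain of myeloid cells, had the largest value, with 2.54 and 2.24 CPM in sham cord and 3.28 and 3.22 in SNI cord (0.44, SE 0.179, adjusted p = 0.178). Il10ra had 5.44 and 5.74 against 6.77 and 7.19 CPM (0.32, adjusted p = 0.130) and Il1r1 4.35 and 4.03 against 4.73 and 5.69 (0.31, adjusted p = 0.245). The SNI pools lay above the sham pools for each of these 3 members. They were picked from those with an unadjusted p under 0.05, so this separation adds no evidence of a change. Microglia and macrophage markers were higher in the same libraries for 6 of 13 genes, with sums of 321 and 322 CPM in sham and 386 and 391 CPM in SNI, and their part in these values was not tested. Lifr had 159 and 147 against 143 and 144 CPM (-0.09, adjusted p = 0.104), and was called as lower without sham replicate 2 (-0.15, adjusted p = 9.3e-04).

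The abundant cord ligands were not called. Cxcl14 had 113 CPM in both sham pools and 109 and 116 in SNI, and Il33 had 141 and 136 against 144 and 143 CPM (0.05, SE 0.0322, adjusted p = 0.498). Il18 had 16.8 and 19.5 against 17.5 and 17.3 CPM.

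Cord footprints and TE gave no call among 25 members tested in edgeR, against 2.85% of all genes in footprints, 0.999% higher and 1.85% lower, and 0.270% in TE. DESeq2 gave 0 calls in both. With library sizes alone the split of all genes called in footprints moved from 120 higher and 222 lower to 135 and 117. At an unadjusted p under 0.05 there were 3 members in footprints, Il17rd, Il6st and Tnfrsf1b, and 0 in TE. The share of all genes at this cut was not computed here either. Tnfrsf1b had 7.97 and 6.03 footprint CPM in sham and 9.21 and 9.22 in SNI (0.43, adjusted p = 0.250). Il17rd, an inhibitor of fibroblast growth factor signalling, had 6.05 and 6.21 against 3.71 and 4.40 CPM (-0.60, adjusted p = 0.169), and Il6st 180 and 184 against 168 and 171 CPM (adjusted p = 0.188).

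The 2 tissues were then compared in their mRNA response to SNI, for the 38 members that passed in both. The difference of the responses was called for 5 members, 13.2% against 17.2% of all 13557 genes, 8.10% with the higher value in the DRG and 9.13% with the lower. With library sizes alone 8 members were called, and the split over all genes moved from 1098 higher and 1238 lower to 1402 and 996. Il13ra1, Il17ra, Il17rc and Cxcl12 rose more in the DRG and Il7 fell more there. Il13ra1 had 6.71 and 7.89 CPM in sham cord and 7.02 and 8.43 in SNI cord, beside its DRG increase of 0.73 (difference 0.64, SE 0.142, adjusted p = 8.7e-04). Il17ra, whose cord level was above its DRG level, had 18.3 and 19.6 CPM in sham cord and 19.0 and 19.2 in SNI cord (difference 0.62, SE 0.123, adjusted p = 1.7e-04). The cord groups of both members overlapped.

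Cxcl12 went from 36.1 and 35.2 CPM in sham cord to 31.4 and 32.9 in SNI cord, opposite to the DRG, although the cord change of -0.15 did not itself pass the test (difference 0.38, SE 0.0662, adjusted p = 2.3e-05). Il17rc had 7.40 and 6.23 against 6.02 and 6.71 CPM in the cord (difference 0.51, SE 0.149, adjusted p = 0.0122), and Il7 had 1.31 and 1.40 against 1.95 and 1.46 CPM (difference -1.04, SE 0.269, adjusted p = 0.00441). The differences of Il13ra1, Il17ra and Cxcl12 were called by DESeq2 and with any pool left out. That of Il7 had an adjusted p of 0.110 without cord SNI replicate 1, and that of Il17rc 0.0708 without DRG sham replicate 1, 0.182 without cord sham replicate 1 and 0.0832 without cord SNI replicate 1. For Il1r1 and Il10ra, called in the DRG and not in the cord, the responses differed by 0.33 and 0.04, and these differences were not called.

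**Figure D5:**
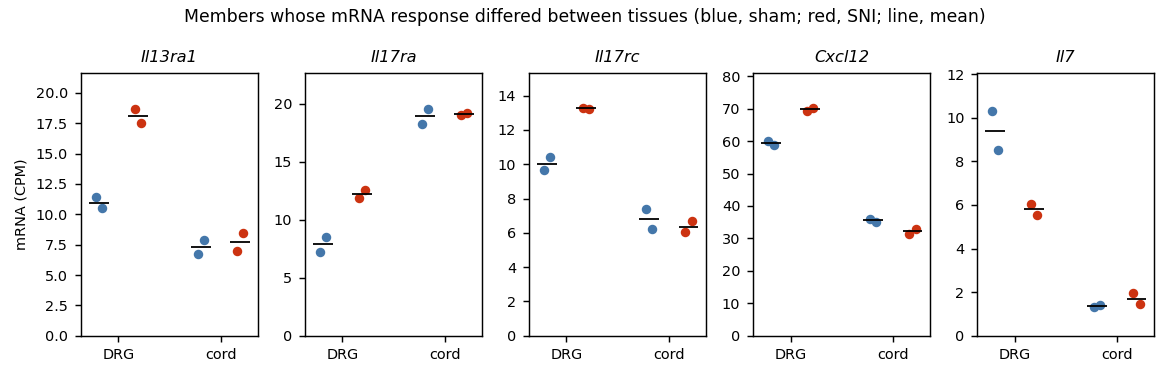
mRNA in CPM normalised by TMM of the 5 members whose response to SNI differed between the tissues, with 1 point for each pool (blue, sham; red, SNI), a line at the mean and an axis from 0. The SNI pair leaves the sham pair in the DRG, upwards for 4 members and downwards for Il7, while the cord pairs of Il13ra1, Il17ra and Il17rc overlap.

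Cytokines that these receptors bind were mostly under the read minimum, and their reads are given in the order sham, sham, SNI, SNI of DRG mRNA. Il17a had 0 reads in every library. Il4 had 0, 0, 3 and 1 reads, Il13 1, 0, 0 and 1, and Il10 0, 0, 2 and 1. Il1a had 0, 0, 0 and 3 reads and Il1b 10, 3, 13 and 12. These cytokines thus had few or no reads in libraries of 18176471 to 28553113 reads, and differences at this depth were mostly not detectable.

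Tnf had 5, 3, 10 and 10 reads, Lif 11, 7, 16 and 18, and Osm 3, 6, 12 and 6. Il6 had 4, 2, 14 and 13 reads, and was called in a fit with no minimum, with a log2 fold change of 1.70 and an adjusted p of 0.0326. Il1f9, an interleukin-36 cytokine, was called in DRG footprints in that fit, with 2 and 5 reads in sham and 16 and 18 in SNI (1.79, adjusted p = 0.0116). Of the chemokine partners, Cxcr6, the receptor of Cxcl16, had 10, 16, 28 and 31 reads, Ccl3 2, 2, 4 and 5, and Ccl4 7, 7, 10 and 11. In the cord Ccl7 had 1 and 7 reads in sham and 23 and 22 in SNI, and was called in the fit with no minimum (2.56, adjusted p = 1.0e-05).

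Genes that are not members were read from 3 lists, which hold related ligands and receptors as well as downstream genes. In DRG mRNA, where 16.0% of all genes were higher, 14 of 21 tested genes of the gp130 and JAK-STAT pathway were higher and none lower, with a median log2 fold change of 0.18 against 0.00 over all genes. In DRG footprints, where 8.20% of all genes were higher and 8.25% lower, 4 of 19 genes of this list were higher and 1 lower. The median of the list was 0.04 in footprints. None of its genes was called in TE, where the median was -0.07. Among the higher genes were the gp130 ligand Ctf1 (0.52), the feedback inhibitor Socs1 (0.48) and its relative Socs3 (0.33). In DRG mRNA, of 26 tested genes of interleukin-1 and TNF signalling to NF-kB, 3 were higher, Relb (0.35), Rela (0.29) and Ikbkb (0.14), a share below that of all genes, and none was called in footprints. Of 14 related chemokine and colony-stimulating factor genes 6 were higher in mRNA, and 8 of 12 in footprints. In mRNA the largest of these were Csf1, a macrophage growth factor (0.88), its receptor Csf1r (0.61), the itch receptor chain Il31ra (0.42) and Tgfb1 (0.41). In cord mRNA, where 1.64% of all genes were higher, the counts were 0 of 19, 1 of 25 (Nfkbia, 0.26) and 2 of 12, the latter Cx3cr1 and Csf1r, both at 0.33.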

How the data were processed

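Poly(A) mRNA and ribosome footprints of DRG and dorsal lumbar spinal cord were analysed in 16 libraries, 2 pools for each of 8 groups. The read counts were made by the authors, who per the labels and methods used Bowtie 1.1.2 to discard reads of rRNA and tRNA and STAR 2.5.2b for alignment to GRCm38.p5 and counted per gene with HTSeq. Its version and strand setting are not given in the sources used here, so reads of overlapping genes may be shared. The counts were used as deposited, and the 24 deposited columns of RPKM and TE were not used. Exonic length came from the deposited table.

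Quasi-likelihood tests of edgeR 4.0.16 (R 4.3.3) were run on these counts. TMM factors were set per assay. SNI was compared with sham in each tissue, TE was an interaction term in a fit that kept each lysate as a term, and the difference between tissues was an interaction as well. A gene needed an average of 32 reads over the 4 libraries of a tissue and assay, or of either tissue where the sham tissues were compared. A call was a Benjamini-Hochberg adjusted p under 0.05 over all genes tested. CPM were normalised by TMM, and log2 TE used 0.5 added reads. Alternatives were DESeq2 1.42.0, library sizes alone, no minimum, no lysate terms, a replicate block, a coefficient of variation of 0.1 and leaving out each pool. The tests were also run on simulated counts with known changes, whose spread was set from the estimated one with a floor. That run cannot show whether the estimated spread is too small, and its outcome is not given here. Coordinates and exon overlaps came from GENCODE M21.

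Members, lists and tests were chosen with earlier results of these data known. Values of every library were given for members called after SNI, for the 3 highest members of each class per exonic kilobase in each tissue, and for ligand and receptor partners of called members. Of each pathway list up to 4 called genes were named, and other members were given by counts and ranges. Values of 1 member and 1 pathway gene are not reported here, although counts include them.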

Additional observations from a re-analysis of the deposited data

Results flagged for a closer look

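Among the 38 members tested in both tissues, 5 stood out because their mRNA response to SNI differed between DRG and spinal cord in a test of the difference itself, the interaction term of edgeR. As DRG minus cord on the log2 scale, the difference was 0.64 for Il13ra1, 0.62 for Il17ra, 0.51 for Il17rc, 0.38 for Cxcl12 and -1.04 for Il7. The 4 positive differences are larger increases in the DRG, and that of Il7 is a fall in the DRG beside a cord change of 0.34 that was not called. With 2 pools per group, no test of single deviating libraries was made.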

How the results depend on the processing

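Of 3116 refits of single members, 2958 kept their side of the threshold, 133 lost a call and 25 gained one. Where the main fit or the refit made a call, 0 refits reversed the direction. Directions were not compared where neither made a call. DESeq2 called 8 members in DRG mRNA, 2 in DRG footprints, 0 in DRG TE and 3 in the difference between tissues, and a coefficient of variation of 0.1 called 5, 1, 0 and 0. Library sizes alone called 8 members in the difference between tissues. No minimum on reads called 1 member in DRG TE, 1 in cord mRNA and 74 in sham DRG against cord, where more members were tested. Leaving out each pool gave 10 to 18 members in DRG mRNA, 4 to 8 in DRG footprints, 0 to 1 in DRG TE, 0 to 1 in cord mRNA and 4 to 8 in the difference between tissues, with the lone pool of an arm assumed to vary like the others. The labels give replicate numbers that are not said to pair samples, and deviations of samples with the same number correlated at 0.043 in DRG mRNA, 0.212 in DRG footprints, 0.0029 in cord mRNA and -0.031 in cord footprints. With a replicate block, 19 members were called in DRG mRNA, 11 in DRG footprints, 2 in DRG TE, 1 in cord mRNA (Lifr, lower), 0 in cord footprints and TE, 6 in the difference between tissues and 49 in sham DRG against cord. The cause of these differences was not tested. The depth limits members of few reads, and counts of under 30 reads per library carry wide errors.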
